A study of Mus musculus with 12 samples.

Results

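The transcripts described here encode the machinery that makes, folds, exports and cross-links collagen, together with the endoplasmic reticulum (ER) chaperones and stress factors of secretory cells. A list of 39 genes was matched by symbol to the probe sets of the arrays, taking probe sets other than controls that are annotated with 1 gene symbol. Of these genes, 36 were found, among 15964 named genes on the arrays, with 78 of the 36701 probe sets, and no probe set was named for Loxl2, Fkbp10 or Adamts2. A filter on low signals left 35 of the 36 genes, and Calr, whose only probe set read 1.0, 3.7, 4.5 and 3.6, did not pass it. A dim probe set does not by itself show that a gene is little expressed.

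The material was total RNA of the humerus, the bone between shoulder and elbow, from mouse embryos at E14.5. One group was labelled Runx2 wildtype and the other Runx2 -/-, called Runx2-null here, and no other allele or agent is named. Runx2 is a transcription factor that osteoblasts need to form. Each genotype had 2 RNA pools, and a pool held roughly 75 humeri in wild type and roughly 60 in the Runx2-null group. No mouse strain is named in the labels. Each pool was hybridised to short-oligonucleotide arrays of types A, B and C, 12 arrays in all. The targeted gene is not analysed here, and the labels were taken as given. Values are array signals, an intensity on a linear scale, comparable for 1 probe set between arrays of 1 type only, and the array medians lay between 37.5 and 60.4. The number of arrays, 2 per genotype and type, limits the precision of every value. A whole humerus holds cartilage, perichondrium, forming bone and adhering tissue. Fewer cells of a type and less RNA per cell cannot be told apart in such samples.

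Procollagen chains enter the ER through the Sec61 channel, and prolyl and lysyl hydroxylases modify them before and while they wind into a triple helix. Chaperones and isomerases assist the folding, the COPII coat carries the cargo towards the Golgi, and the propeptides are cut off outside the cell. Lysyl oxidases then start the cross-links that hold fibrils together. A secretory cell adjusts the capacity of its ER through stress-activated transcription factors, among them Xbp1, Atf6 and Atf4 and, in bone and cartilage, Creb3l1 and Creb3l2.

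Before the results, 3 facts about the arrays matter. The replicate number equals a scan batch: arrays of replicate 1 were scanned in 2 passes with pixels of 3 µm, and those of replicate 2 in 1 pass with pixels of 2.5 µm. Each number is also a separate RNA pool in each genotype, so scanning and the tissue in a pool cannot be told apart. On arrays A and B, signals of control probe sets correlated at 0.987 to 0.996 between arrays of the same replicate number and at 0.952 to 0.966 between arrays of the same genotype. On array C the order was turned, at 0.95 and 0.953 within a number against 0.984 and 0.991 within a genotype. A probe set for 18S ribosomal RNA shows the same turn. On array A it read 709.9 and 131.6 in wild-type replicates 1 and 2 and 804.4 and 93.5 in Runx2-null replicates 1 and 2. On array C it read 2974.5 and 3666.9 in wild type against 578.1 and 520.8 in the Runx2-null arrays. On array C, genotype and the pattern of the control probe sets therefore cannot be told apart, and whether its columns carry the right labels is in doubt. Of 17 genes called by at least 2-fold on arrays A and B with a tested probe set on C, 11 had the same direction on C by the labels. With the columns of wild-type replicate 2 and Runx2-null replicate 1 exchanged, the number was also 11, which does not settle the doubt. Values of array C are therefore given apart, as labelled. Differences are Runx2-null minus wild type on the scale of log2(signal + pseudocount), on which changes of dim probe sets come out too small. A gene with more than 1 probe set is represented by that of highest signal percentile on arrays A and B, said to stand for it, and counts of genes refer to these. The words rose and fell are used only for an adjusted p under 0.05 in limma's fit with the replicate number as a block, on arrays A and B.

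Most of the machinery differed little between the genotypes, and 2 genes that act on collagen outside the cell fell in the Runx2-null humeri: Lox, the lysyl oxidase that starts cross-linking, and Pcolce, the enhancer of procollagen C-proteinase. Of the 35 genes tested on arrays A and B, 2 fell, 0 rose and 33 did not pass. Over all 15601 probe sets tested on these arrays, 1.29% passed in the lower direction and 0.904% in the higher direction. In limma's fit without the block 0 of the 35 passed (lowest adjusted p = 0.197), where 0.0259% of all 23193 probe sets tested passed. An unadjusted p under 0.05 was found for 1 of the 35 without the block and 7 with it, against 2.06% and 14.8% of all probe sets tested on A and B. The median log2 difference of the 35 genes was -0.06, with -0.04 within scan batch 1 and -0.08 within scan batch 2, against 0.01 for all probe sets tested on A and B. By sign, 20 genes were lower and 15 higher. Of the 35 genes, 29 lay within 0.3 of no difference on the log2 scale, as did 70.8% of all probe sets tested. The standing probe sets of the members were bright, with a median signal percentile of 96.2 and 24 of the 35 over 90. All probe sets tested include dimmer ones, so the shares and gaps here and below are not matched for signal.

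**Figure D1:**
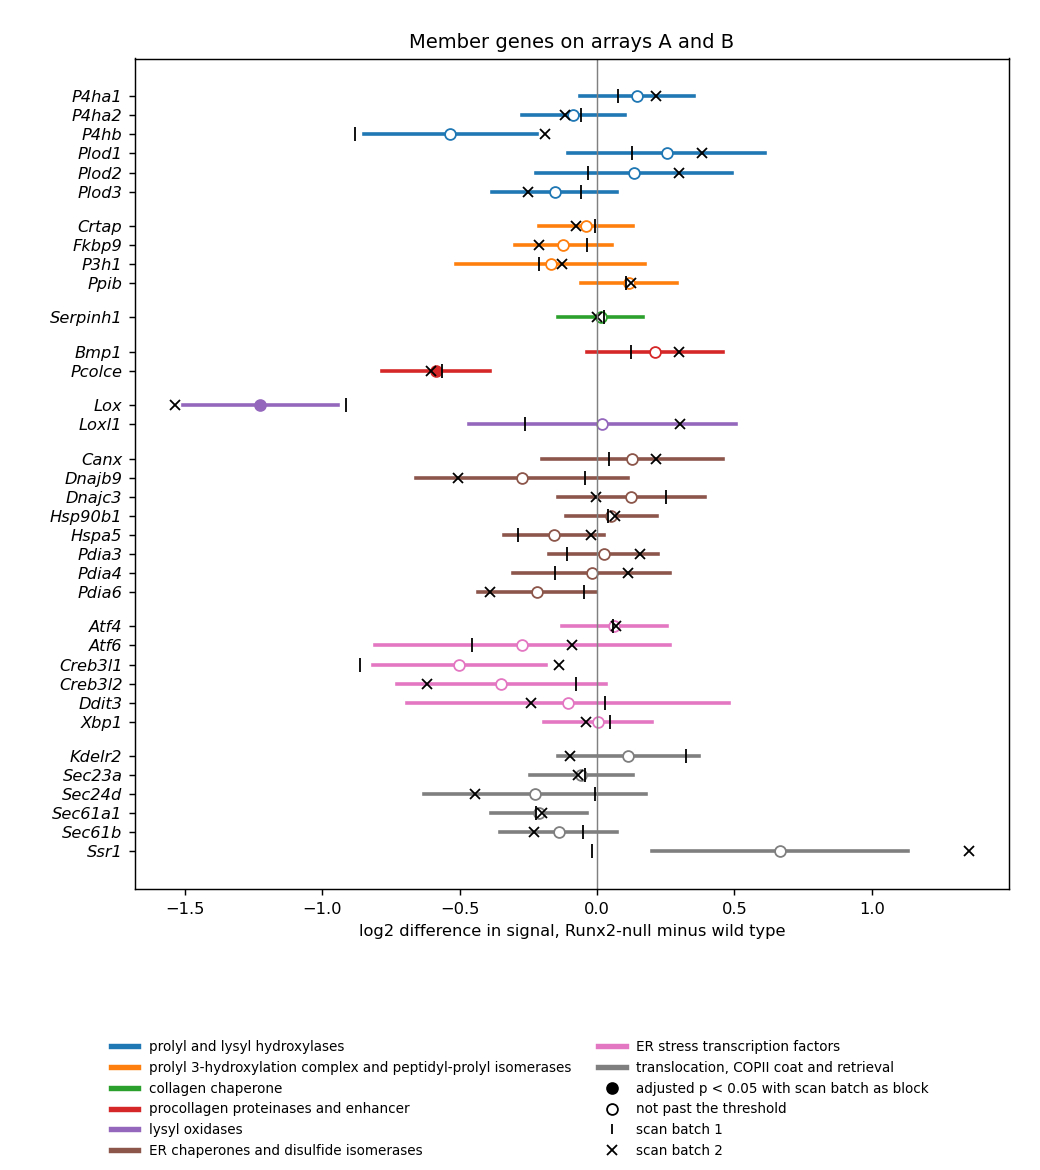
Log2 difference in signal, Runx2-null minus wild type (x axis), for the 35 member genes tested on arrays A and B, coloured by role; circles are means over 2 pools per genotype, bars 95% intervals with the scan batch as block, ticks and crosses the differences within scan batches 1 and 2. Lox at -1.23 and Pcolce at -0.58 are the 2 filled circles, and 29 of the 35 genes lie within 0.3 of 0.

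Lox, whose product oxidises lysine residues of collagen and elastin, read 511.3 and 610.4 in the wild-type pools, against 268.0 and 205.8 in the Runx2-null ones. Both Runx2-null pools lay below both wild-type pools. The mean went from 561 ± 70.1 to 237 ± 44.0 (SD, n = 2 pools each), a ratio of 0.422. Lox fell by 1.23 on the log2 scale (SE 0.13, 95% interval -1.51 to -0.94, adjusted p = 0.000251 with limma and the block, 0.197 without it). The difference was -0.91 within scan batch 1 and -1.54 within scan batch 2. It is the one member whose standing probe set on A and B differed by at least 1 on the log2 scale. A second Lox probe set was below the filter, with 21.7 and 8.5 in wild type, against 35.3 and 3.8 in the Runx2-null pools.

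Loxl1, a relative of Lox with a role in elastic fibres, was dim on array A. It read 52.8 and 39.4 in the wild-type pools, against 42.8 and 50.2 in the Runx2-null ones, and the groups overlapped. Its log2 difference was 0.02 (95% interval -0.47 to 0.50, adjusted p = 0.980 with limma and the block), so a change within that interval in either direction is not excluded.

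Pcolce binds the C-propeptide of procollagen and speeds its removal. It read 957.3 and 527.3 in wild-type replicates 1 and 2 and 645.1 and 344.4 in Runx2-null replicates 1 and 2. The groups overlapped across the scan batches, and the Runx2-null pool was lower than the wild-type pool of its own batch in both. The means were 742 ± 304 and 495 ± 213 (SD, n = 2 pools each). Pcolce fell by 0.58 on the log2 scale (SE 0.09, 95% interval -0.78 to -0.39, adjusted p = 0.00503 with limma and the block, 0.957 without it). The within-batch differences were close to each other, at -0.56 and -0.60, while the 2 batches differed by -0.87. Without the block the difference moved when 1 pool was left out. It was -0.16 or -1.01 when the first or the second wild-type pool was dropped, and -1.03 or -0.14 when the first or the second Runx2-null pool was dropped. Without limma's variance trend neither Lox nor Pcolce passed with the block (adjusted p = 0.248 and 0.273). In a fit on means over the probe sets of each gene, with the block, Pcolce did not pass (adjusted p = 0.0696) and Lox did (0.0301).

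The promoter of Pcolce is shown because this gene fell with both batch differences alike, and because the window can be searched for the letters that RUNX proteins bind. It lies at chr5:137611355-137611654 on the minus strand of GRCm38.p6 and runs from 250 bases before to 50 bases after a RefSeq start. The gene is listed up to position 137611522, within the window, so the start used is not its outermost. Only this window was searched for Pcolce. No match to TGTGGT or TGCGGT was found on either strand, so no base is in capitals.
Pcolce: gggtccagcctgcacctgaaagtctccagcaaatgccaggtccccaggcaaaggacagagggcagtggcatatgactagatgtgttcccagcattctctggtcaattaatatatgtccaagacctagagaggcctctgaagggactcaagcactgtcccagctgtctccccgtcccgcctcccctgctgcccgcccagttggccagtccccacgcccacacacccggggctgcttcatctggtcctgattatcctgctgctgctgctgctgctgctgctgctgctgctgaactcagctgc
Among the 29 members with a promoter in the RefSeq table, TGTGGT was found for 3 genes (Crtap, P4ha2 and Plod3; 10.3%, against 18.9% of 27025 genes). TGCGGT was found for 6 genes (Adamts2, Canx, Crtap, Hsp90b1, P4hb and Sec24d; 20.7%, against 7.34%). These are descriptions of letters in a 300-base window. None of the tested genes that hold either motif passed the test, but only 2 of 35 members passed at all. This lack of overlap therefore says nothing about control by RUNX proteins. The promoter of Lox, the other gene that fell, is not reported here.

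Bmp1, the procollagen C-proteinase whose action Pcolce enhances, had 3 tested probe sets that did not point one way. The brightest for its array read 250.7 and 201.5 in wild type, against 273.9 and 249.5 in the Runx2-null pools, a log2 difference of 0.21 (SE 0.12, adjusted p = 0.376 with limma and the block). The others gave -0.09 and -0.79, and none passed.

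**Figure D2:**
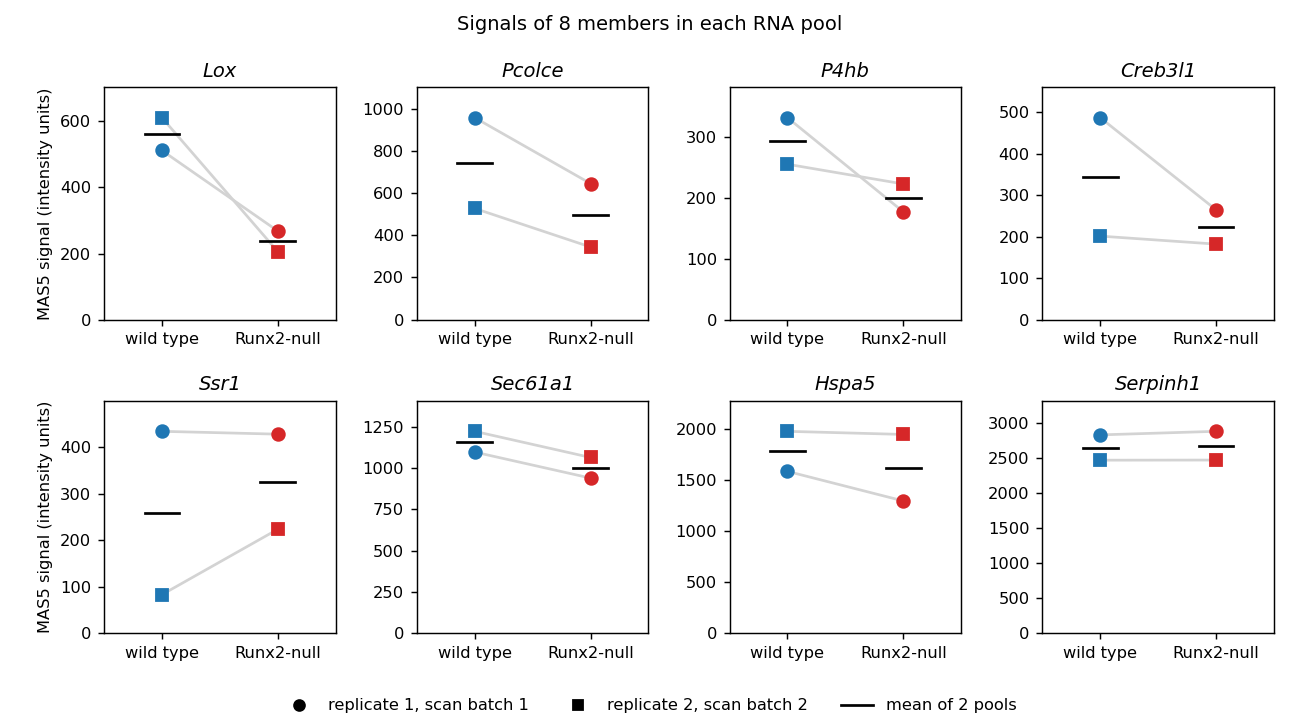
Signal in each RNA pool (y axis, intensity units from 0) of 8 member genes in wild type (blue) and Runx2-null (red); circles are replicate 1, squares replicate 2, grey lines join pools of 1 scan batch and black bars are means of 2 pools. Lox has both Runx2-null pools below both wild-type pools, Pcolce is lower within each batch, and Serpinh1 is nearly level within each batch.

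None of the 6 prolyl and lysyl hydroxylase genes passed the test, and their median log2 difference was 0.02. P4hb, which encodes the disulfide isomerase that doubles as the beta subunit of prolyl 4-hydroxylase, read 331.5 and 255.1 in the wild-type pools, against 177.0 and 222.7 in the Runx2-null ones. All Runx2-null signals lay below the wild-type ones, and the log2 difference was -0.53 (SE 0.15, adjusted p = 0.0759 with limma and the block, 0.758 without). It was -0.88 within scan batch 1 and -0.19 within scan batch 2. The name of this probe set ends in _r_at, a suffix treated here as a sign of possible cross-hybridization. Without probe sets of that kind P4hb is read from a second, dimmer one, which gave 0.13, the opposite sign.

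The catalytic alpha subunits of prolyl 4-hydroxylase gave a log2 difference of 0.15 for P4ha1 and -0.09 for P4ha2. P4ha1 read 394.7 and 535.5 in wild type, against 416.2 and 623.3 in the Runx2-null pools, and the groups overlapped. For P4ha2 the 95% interval of the log2 difference was -0.27 to 0.10.

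Among the lysyl hydroxylases, which prepare the lysines that are glycosylated and cross-linked, the log2 differences were 0.25 for Plod1, 0.13 for Plod2 and -0.15 for Plod3. Plod1 read 947.1 and 1034.8 in the wild-type pools, against 1034.7 and 1352.4 in the Runx2-null ones (SE 0.16, adjusted p = 0.468 with limma and the block), and its other probe set on array B gave -0.26. Plod2, the telopeptide lysyl hydroxylase, had a 95% interval of -0.22 to 0.49. Plod3 had 2 further probe sets, at -0.56 and 0.20, neither of which passed.

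Serpinh1, which encodes the collagen-specific chaperone Hsp47, was nearly level. It read 2835.3 and 2474.0 in wild type, against 2886.2 and 2475.8 in the Runx2-null pools, and within each scan batch the 2 genotypes were closer to each other than the batches were. The log2 difference was 0.01 with a 95% interval of -0.14 to 0.17.

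The genes of prolyl 3-hydroxylation and peptidyl-prolyl isomerisation did not pass either. Crtap and P3h1 form a complex with the isomerase Ppib that modifies single prolines of type I collagen, and loss of each causes a brittle bone disease in people. Their log2 differences were -0.04 for Crtap, -0.17 for P3h1 and 0.12 for Ppib, with 95% intervals of -0.21 to 0.13, -0.51 to 0.18 and -0.06 to 0.29. Ppib read 1058.9 and 1062.4 in the wild-type pools, against 1139.8 and 1158.7 in the Runx2-null ones, and is one of 2 members, with Atf4, whose Runx2-null signals both lay above wild type. P3h1 showed the widest gap between scan batches among the probe sets that stand for the members. It read 653.5 and 2344.5 in wild-type replicates 1 and 2 and 562.7 and 2145.8 in Runx2-null replicates 1 and 2, a batch difference of 1.86 on the log2 scale against a genotype difference of -0.17. Fkbp9, an ER isomerase of the FKBP family, had a log2 difference of -0.12 between genotypes and 0.90 between batches.

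In the translocation, coat and retrieval group 0 of 6 genes passed, with a median log2 difference of -0.10. Sec61a1, the pore-forming subunit of the translocation channel, read 1096.7 and 1222.2 in wild type, against 939.3 and 1064.0 in the Runx2-null pools. Both Runx2-null signals lay below wild type, by a log2 difference of -0.21 (SE 0.08, adjusted p = 0.204 with limma and the block), and a second probe set gave -0.18. Within the scan batches the difference was -0.22 and -0.20. Sec61b, its small partner subunit, gave -0.14.

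Ssr1, a subunit of the translocon-associated protein complex, had the largest positive difference among the probe sets that stand for the members on A and B, and it rested on 1 batch. It read 434.6 and 83.3 in wild-type replicates 1 and 2 and 428.5 and 223.9 in Runx2-null replicates 1 and 2. The log2 difference was 0.67 (SE 0.22, 95% interval 0.20 to 1.13, adjusted p = 0.129 with limma and the block), made of -0.02 within scan batch 1 and 1.35 within scan batch 2. The other Ssr1 probe sets on A and B gave -0.10 and 0.08.

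The COPII coat genes Sec23a and Sec24d, which shape the carriers that leave the ER, had log2 differences of -0.06 and -0.23, and Kdelr2, the receptor that returns ER residents, had 0.11. The 95% intervals were -0.24 to 0.13 for Sec23a, -0.63 to 0.18 for Sec24d and -0.14 to 0.37 for Kdelr2. A further Sec23a probe set on array A gave 0.35.

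None of the 6 ER stress transcription factors passed, and their median log2 difference was -0.19. Creb3l1, the membrane-bound factor also called OASIS that drives type I collagen transcription in mouse osteoblasts, read 487.0 and 201.5 in wild-type replicates 1 and 2 and 264.9 and 182.2 in Runx2-null replicates 1 and 2. The groups overlapped, and the log2 difference was -0.50 (SE 0.15, adjusted p = 0.0965 with limma and the block, 0.999 without). It was -0.86 within scan batch 1 and -0.14 within scan batch 2. Creb3l2, its relative that acts on the COPII gene Sec23a in mouse cartilage, read 2741.3 and 4927.9 in the wild-type pools, against 2598.2 and 3202.7 in the Runx2-null ones. The log2 difference was -0.35 (SE 0.17, adjusted p = 0.337), and its other probe sets gave 0.03 and -0.36. As for P4hb, the standing probe set carries a suffix treated as a sign of possible cross-hybridization. Without probe sets of that kind Creb3l2 is read at 0.03.

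The canonical factors of the unfolded protein response lay near no difference or were too dim to say. Xbp1, activated by splicing under ER stress, had a log2 difference of 0.00 with a 95% interval of -0.19 to 0.20. Atf4, which acts in the integrated stress response and in osteoblast maturation, had 0.06 with -0.13 to 0.25. Neither probe set shows the spliced state of Xbp1 or protein levels. Atf6 (log2 difference -0.27, 95% interval -0.81 to 0.26) and Ddit3, the stress factor CHOP (-0.11, -0.69 to 0.48), were dim, with all signals of these probe sets between 22.6 and 38.9. A second tested Atf6 probe set, on array B, read 56.4 and 27.0 in wild type, against 49.0 and 46.1 in the Runx2-null pools, and gave 0.20, the opposite sign.

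None of the 8 tested ER chaperone and disulfide isomerase genes passed, with a median log2 difference of 0.00 and a range of -0.27 to 0.13 over their standing probe sets. Hspa5, the Hsp70 chaperone BiP, read 1582.1 and 1973.3 in wild type, against 1293.5 and 1942.9 in the Runx2-null pools, a log2 difference of -0.16 (SE 0.08, adjusted p = 0.375 with limma and the block). Its batch difference of 0.45 exceeded that between the genotypes. Pdia6, a disulfide isomerase, read 698.6 and 802.7 against 675.5 and 611.2, a log2 difference of -0.22 (SE 0.10, adjusted p = 0.285), with all Runx2-null signals below wild type. Dnajb9, an Hspa5 co-chaperone, read 47.9 and 144.2 in wild type, against 46.3 and 99.6 in the Runx2-null pools. Its log2 difference was -0.27 (SE 0.18, adjusted p = 0.479), and its second probe set gave 0.14.

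By the probe set that stands for each gene, the remaining chaperones were within 0.13 of no difference. Hsp90b1, the ER Hsp90, gave 0.05, Canx, the lectin chaperone calnexin, 0.13, and Dnajc3, another Hspa5 co-chaperone, 0.12 on the log2 scale. The disulfide isomerases Pdia3 and Pdia4 gave 0.02 and -0.02. The standing probe set of Dnajc3 carries a suffix treated as a sign of possible cross-hybridization, and without such probe sets Dnajc3 is read at 0.02. It had 3 further tested probe sets, at 0.02, -0.04 and -0.56. The last, on array B, read 181.0 and 80.8 in wild type, against 142.8 and 40.5 in the Runx2-null pools, and was lower within both batches without passing (adjusted p = 0.275 with limma and the block).

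What several of these chaperone genes share is a promoter sequence, the ER stress response element, in which CCAAT and CCACG stand 9 bases apart and which ATF6 binds together with the CCAAT factor NF-Y. It was searched on both strands in the RefSeq promoters (GRCm38.p6, 250 bases before to 50 after the start). An exact match was found for 6 of 29 member genes, 20.7%, against 0.137% of 27025 genes. The member list was built to hold ER chaperones and stress genes, so the contrast is a description and not a test. The matches are shown because they are what these members have in common at their start sites, with CCAAT and CCACG in capitals and each read in the direction of the element.
Calr: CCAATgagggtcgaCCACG
Canx: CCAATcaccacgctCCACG
Dnajc3: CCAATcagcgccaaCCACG
Hsp90b1, first match: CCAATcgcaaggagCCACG
Hsp90b1, second match: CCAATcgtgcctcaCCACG
Hspa5: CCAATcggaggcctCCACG
Pdia6: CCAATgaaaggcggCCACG
The 5 genes of these that were tested had log2 differences from -0.22 to 0.13 by their standing probe sets, and none passed. The whole Hspa5 promoter, chr2:34771840-34772139 on the plus strand, follows with 2 elements in capitals, the core TGACGTG of the unfolded protein response element and then the ER stress response element.
Hspa5: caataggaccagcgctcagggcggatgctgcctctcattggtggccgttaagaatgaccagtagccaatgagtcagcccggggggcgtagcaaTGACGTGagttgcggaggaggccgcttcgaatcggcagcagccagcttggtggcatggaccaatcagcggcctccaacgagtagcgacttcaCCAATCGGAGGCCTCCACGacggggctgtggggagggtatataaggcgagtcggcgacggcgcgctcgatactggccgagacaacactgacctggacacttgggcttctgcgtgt
TGACGTG was also found for Sec23a and Sec24d, so for 3 of 29 members (10.3%, against 2.22% of genes). CCAAT alone was found for 17 of 29 (58.6%, against 41.1%), a count that includes every gene with the longer element. The second form of the element, ATTGG and CCACG with 1 base between them, the cyclic AMP response element TGACGTCA and the composite TGATGNAA were found for 0 of 29 members (0.0444%, 2.03% and 4.51% of genes). A match says only that the letters are in the window.

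In most members the scan batches, each also a separate pool per genotype, lay further apart than the genotypes. The gap between batches exceeded that between genotypes for 25 of 35 genes, and for 67.8% of all probe sets tested on arrays A and B. The median absolute log2 gap was 0.29 between batches and 0.14 between genotypes for the members, and 0.35 and 0.19 for all probe sets tested. Among the probe sets that stand for the genes, the widest batch gaps were those of P3h1 (1.86), Ssr1 (-1.60) and Dnajb9 (1.23), while Lox had -0.06. A further Sec23a probe set on array A, with 468.6 and 66.7 in wild type and 426.9 and 123.6 in Runx2-null replicates 1 and 2, had a wider one, -2.21. Both Runx2-null pools lay below both wild-type pools for 6 of the 35 genes, Lox, P4hb, Sec61a1, Pdia6, Atf6 and Crtap, and above them for 2. The same held for 11.7% and 13.6% of all probe sets tested. The sign was the same in both batches for 26 genes, 18 lower and 8 higher, against 28.0% and 32.1% of all probe sets tested.

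**Figure D3:**
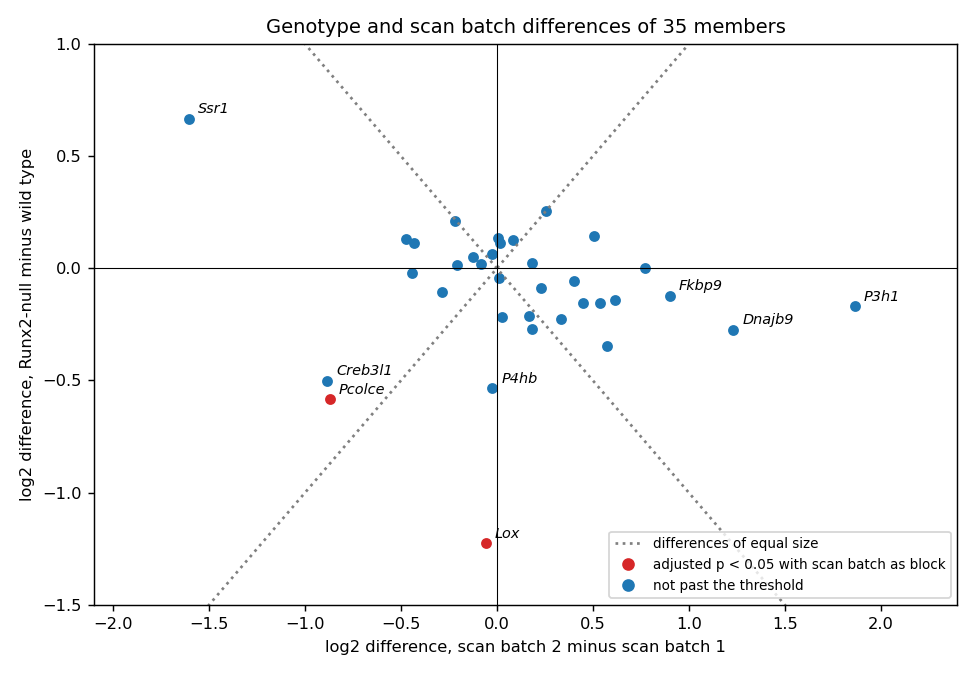
Log2 difference between scan batches (x axis, batch 2 minus batch 1) against log2 difference between genotypes (y axis, Runx2-null minus wild type) for 35 member genes on arrays A and B; dotted lines mark differences of equal size and red points passed the test with the block. Lox lies far down at a batch difference of -0.06, while P3h1 at 1.86 and Ssr1 at -1.60 lie far to the sides.

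The 95% intervals with the block are not adjusted for the number of tests. They therefore do not mark the smallest difference that the adjusted test would have called. P4hb had an interval of -0.85 to -0.22 without passing. Of the 33 genes that did not pass, 32 had intervals within 1 log2 unit of no difference and 22 within 0.5. The exception at 1 was Ssr1. Since limma draws the variance behind these intervals in large part from other probe sets (prior degrees of freedom 12.7 on array A and 7.74 on array B), they say little about the spread of any single gene.

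Further probe sets of the same gene often differed in sign. Of the 15 members with several tested probe sets on arrays A and B, 11 had both signs among them. On array C, as labelled, 10 member probe sets were tested and 0 passed with the block. The nearest was one for Sec23a, with 281.8 and 213.3 in wild type and 499.1 and 431.0 in Runx2-null arrays, a log2 difference of 0.89 (adjusted p = 0.0593 with limma and the block), while its probe sets on array A gave -0.06 and 0.35. With the 2 columns exchanged as above, the same probe set would give -0.30, so its direction rests on labels that are in doubt. The 4 tested Plod1 probe sets on array C ranged from -0.58 to 0.48.

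**Figure D4:**
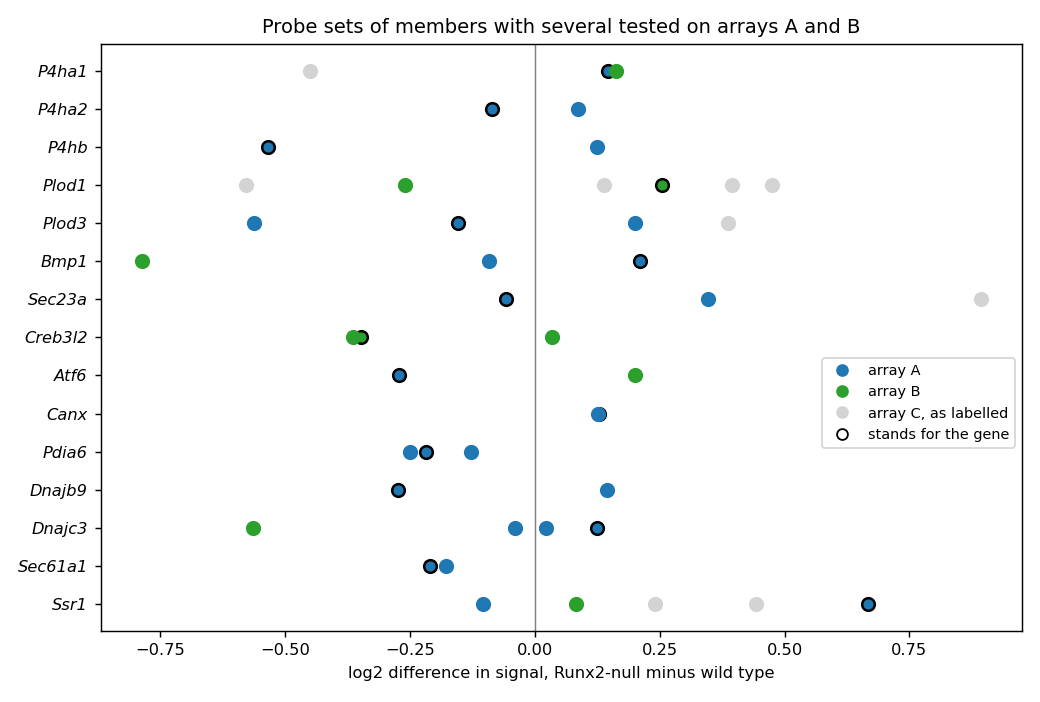
Log2 difference in signal, Runx2-null minus wild type (x axis), of each tested probe set of the 15 members with several on arrays A and B; blue is array A, green array B, grey array C as labelled, and a black ring marks the probe set that stands for the gene. In 11 of the 15 genes the blue and green points lie on both sides of 0, as for Bmp1 at -0.79, -0.09 and 0.21.

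The neighbours of these genes in the same pathways gave a like picture. Of 152 further genes tested in 6 lists, 4 fell, 0 rose and 148 did not pass with the block, and 0 passed without it. The shares, 2.63% lower for the lists and 5.71% lower for the members, stand against the 1.29% given above.

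Of 14 tested genes among other enzymes of collagen processing 1 fell, with a median log2 difference of -0.16. It was Pcolce2, the relative of Pcolce that also enhances procollagen C-proteinase. Pcolce2 read 729.2 and 1481.6 in wild-type replicates 1 and 2 and 336.0 and 776.1 in Runx2-null replicates 1 and 2, and was lower within each batch, by -1.09 and -0.92. The log2 difference was -1.005 (SE 0.16, adjusted p = 0.0194 with limma and the block, 0.781 without). Both genes for C-proteinase enhancers thus fell. P3h2, a prolyl 3-hydroxylase, gave -0.93 (adjusted p = 0.0676), and Tll1, a proteinase related to Bmp1, was dim and gave 0.87 (0.143).

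Among the collagens themselves, the substrates of the machinery, 2 of 18 tested genes fell and the median was -0.17. Col2a1 and Col10a1, also listed as markers of chondrocytes and hypertrophic chondrocytes, were below the signal filter and were not tested. Col9a3 and Col11a2, other cartilage collagens, were bright, at signal percentiles of 99.8 and 99.2. Whether the dim probe sets read their transcripts poorly was not tested. Col1a2, a chain of type I collagen, read 5132.5 and 3699.2 in the wild-type pools, against 4124.5 and 2315.9 in the Runx2-null ones and fell by 0.49 in log2 units (SE 0.08, adjusted p = 0.00893 with limma and the block, 0.914 without). Col5a2, a chain of the type V collagen that copolymerises with it, fell by 0.47 on the same scale (SE 0.09, adjusted p = 0.0225, 0.870 without).

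In the other ER folding genes 1 of 26 fell, with a median of -0.09. It was Fkbp11, an ER peptidyl-prolyl isomerase of secretory cells, which read 338.4 and 451.6 in wild type, against 212.8 and 317.2 in the Runx2-null pools. Both Runx2-null signals lay below wild type, and the log2 difference was -0.58 (SE 0.11, adjusted p = 0.0145 with limma and the block, 0.791 without).

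The other lists held no call with the block: 0 of 25 genes for the unfolded protein response and ER degradation, 0 of 26 for the translocon, signal peptidase and oligosaccharyltransferase, and 0 of 43 for COPII, COPI and cargo receptors. Their median log2 differences were -0.10, -0.10 and -0.08. The lowest p-values belonged to Chac1 (log2 difference -0.70, adjusted p = 0.154) and Edem3 (-0.43, 0.174) in the first, Sec61a2 (0.32, 0.163) and Tram1 (-0.24, 0.175) in the second, and Copa (0.29, 0.0780) and Kdelr1 (-0.29, 0.118) in the third.

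Markers of cell types moved with the genotype on the same arrays. Of 10 tested osteoblast markers 8 fell, with a median log2 difference of -1.58. The summed signal of the 10 was 13754 and 12258 in the wild-type pools, against 9442 and 6528 in the Runx2-null ones. Most of this sum in every pool came from Col1a1 and Col1a2, so it says little about the other markers. Col1a1 alone read 5664.5 and 4769.0 in wild type, against 5014.2 and 3748.8 in the Runx2-null pools. Ibsp, Dmp1 and Omd, defining genes of bone-forming cells, read between 5.4 and 10.9 in the Runx2-null pools, near the pseudocount of 7. Markers of hypertrophic chondrocytes fell in 7 of 8, with sums of 3746 and 4971 against 596 and 440, and of osteoclasts in 3 of 4, with sums of 1803 and 1911 against 265 and 396. Of 13 chondrocyte markers 1 rose and 1 fell, with sums of 19107 and 22871 against 22182 and 23378. Of 11 tendon and fibrous tissue markers 3 rose, with sums of 7877 and 6608 against 9189 and 8295. No gene passed among markers of muscle (14), endothelium (9), erythroid cells (7), macrophages (6), epidermis (5) or nerve (5). The muscle sums went with the replicate number, at 5404 and 1496 in wild-type and 6522 and 1178 in Runx2-null replicates 1 and 2. Tissue in the pools and scanning cannot be told apart in this gap. Col1a1 and Col1a2 stand in the osteoblast and the collagen list alike. Ibsp, Alpl and Pth1r are listed as markers of both osteoblasts and hypertrophic chondrocytes, so the counts and sums of these cell types are not independent. The part of these cell types in the falls of Lox, Pcolce, Pcolce2 and Fkbp11 was not tested.

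**Figure D5:**
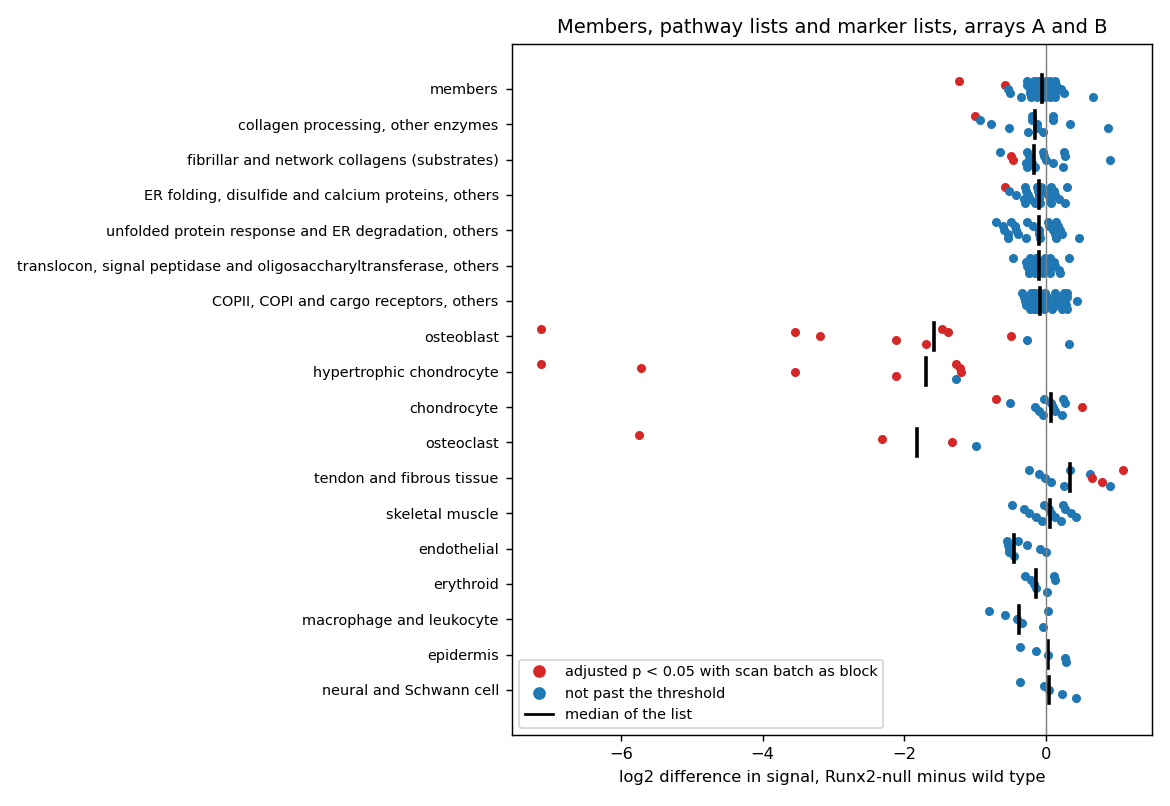
Log2 difference in signal, Runx2-null minus wild type (x axis), of each gene tested on arrays A and B among the 35 members, 6 pathway lists and 11 lists of cell type markers; red points passed the test with the block and black bars are medians. The members and pathway lists cluster between -0.17 and -0.06 by median, while the medians for osteoblast and osteoclast markers lie at -1.58 and -1.82.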

How the data were processed

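RNA pools of humeri from 2 genotypes were measured on 3 array types. The deposited values are signals, an array intensity per probe set, made by the authors with MAS5, per the submitters' processing notes (version not given in the sources used here). The deposited arrays had a trimmed mean of about 100 units each and were not normalized further. Array files also gave the scan settings.

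Signals were taken as log2(signal + pseudocount), with 7, 13 and 10 for types A, B and C, the 20th percentile of each. The 198 control probe sets were left out. A probe set was tested if 2 or more of its 4 arrays put it over their 40th percentile, which left 23193, and 15601 on A and B. Genes were named from the platform annotation, and the probe set of highest signal percentile stood for a gene. lmFit and eBayes with a variance trend (limma 3.58.1, R 4.3.3) were fitted per array type over all probe sets, with Benjamini-Hochberg adjustment over the 3 types. The planned design had no block. The fit with the replicate number as a block was planned beside it, and carries the calls here because the numbers equal scan batches that hold both genotypes. Over tested probe sets, how far an array lay from the mean of its genotype correlated between arrays of 1 number at 0.764 on A, 0.595 on B and 0.06 on C. The labels call the pools biological replicates, so p-values cover the spread between these pools only.

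Full values were given for members past the threshold and the 12 of lowest p with the block. Of each pathway list, called genes or else the 2 of lowest p were named, and P3h2 and Tll1 were named besides. Serpinh1, Loxl1, Ppib, P3h1 and P4ha1 were given signals beyond the rule for members, chosen after their values were seen. The members and lists were chosen with earlier results of these data known. Promoters are from RefSeq, where 29 of the 39 members had one. Alternatives covered normalization, pseudocount, filter, variance model, adjustment, choice of probe sets and leaving out pools.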

Additional observations from a re-analysis of the deposited data

How the results depend on the processing

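Without the block, 6 probe sets passed over the whole series. The number was 505 with the replicate block, 95 on array C alone, 11 with quantile normalization, 2 with a pseudocount of 1, 13 with a pseudocount of 50, 11 with a 60th percentile filter, 2 without a variance trend, 99 with adjustment within array types, and between 5 and 22 when 1 pool was left out. Member genes that passed numbered 0 in the fit without the block under every alternative that kept that design, and 2 with the replicate block. With the block on arrays A and B, the 2 calls became 0 without a variance trend (adjusted p = 0.248 for Lox and 0.273 for Pcolce) and 1 when probe sets of a gene were averaged in a joint fit of A and B (adjusted p = 0.0301 for Lox and 0.0696 for Pcolce). They became 3 with a pseudocount of 50 and with adjustment within array types, where P4hb joined at its lowest adjusted p of 0.0475. Without probe sets of possible cross-hybridization the P4hb difference turned to 0.13 and the calls stayed at 2. Lox and Pcolce passed in 9 of 10 fits with the block on single probe sets, at adjusted p from 2.95e-05 to 0.248 and from 0.00183 to 0.273. The adjustment over A and B alone was chosen after seeing the data and left 2 calls. The median log2 difference of the members over all array types, -0.09, was -0.06 on arrays A and B, 0.0733 on array C alone, and between -0.16 and 0.05 when 1 pool was left out. Signs of single members depend on the pools: 14 of 35 changed without wild type replicate 2 and 12 without Runx2-null replicate 1. With 1 pool left out, its genotype is read in 1 scan batch only, so the gap between batches enters the difference. Within scan batch 1 and within scan batch 2, the sign differed from the main one for 4 of 35 members each. Leaving out a pool leaves no residual degrees of freedom with the block, so the within-batch values stand in its place. Apart from this mixing of batch and genotype, the cause of these shifts was not tested. Dim probe sets, those of Atf6, Ddit3, Loxl1 and Dnajb9 among them, limit what could be seen.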
